A study of Mus musculus with 2 samples.

Results

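Aquaporins are membrane channels of the major intrinsic protein family. The water-selective members pass water along osmotic gradients, the aquaglyceroporins Aqp3, Aqp7 and Aqp9 also pass glycerol, and Aqp11 is an intracellular member with an unusual pore motif. In the urinary tract Aqp1 lines the proximal tubule, the descending thin limb and many blood vessels, Aqp2 is the vasopressin-regulated channel of the collecting duct, and Aqp3 and Aqp4 lie in basolateral membranes of collecting duct cells. Aqp3 is also made by the urothelium, the stratified epithelium that lines the ureter. The 10 aquaporins described here (Aqp1, Aqp2, Aqp3, Aqp4, Aqp5, Aqp6, Aqp7, Aqp8, Aqp9 and Aqp11) were matched by gene name among 29982 genes on the array, and 15 probes measured them.

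RNA came from pooled ureters of E16.5 mouse embryos of the outbred strain NMRI, dissected by hand and sorted by sex. Array 1 carried female pools and array 2 male pools, and each set 1 Pparg-cKO pool against 1 control pool in 2 dyes. Pparg-cKO embryos were labelled Pax2-cre/+; Pparg(fl/fl), a floxed Pparg allele deleted by a cre under Pax2 control that the study used to target the epithelium, while the pools also held the mesenchyme of the ureter. Controls were labelled Pparg(fl/?), which leaves the second allele open, and were cre-negative littermates by the study's methods. Pparg encodes a ligand-dependent nuclear receptor.

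The RNAs are named here by dye. RNA A carried AlexaFluor647 on array 1 and AlexaFluor555 on array 2, and RNA B the other dye. The labels make RNA A the control, whereas the direction in the study's text would make RNA A the Pparg-cKO. That text also rests on in situ hybridization of sections. There the study reported Krt20 and Upk1a as strongly reduced or absent in the mutant, Upk3b as reduced and Aqp3 as weakly affected. On both arrays here RNA B was the brighter one for all of these genes. The deposited fold changes followed RNA A over RNA B (Pearson's r over genes 0.997 on either array), but their own direction is not stated. Read in the order of the sample titles, Pparg-cKO against control, they too would make RNA A the Pparg-cKO. The labels and the study thus disagree, the labels do not settle the direction by genotype, and every log2 ratio here sets RNA A over RNA B. Pparg signals were 11295 for RNA A against 7430 for RNA B (array 1), and 12888 against 7872 (array 2). Its probe starts at base 1562 of the transcript, outside the deleted exons near the 5′ end, and so does not check the labels. The sex of the pools and the dye orientation both differ between the arrays, so their effects cannot be told apart, and 1 slide held both arrays. Between 70.4% and 80.4% of spots per channel were well above background, the level at which the scanner software calls a spot detected.

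Of the 10 aquaporins, 7 were well above background on both arrays in the same RNA and were tested. These were Aqp1, Aqp2, Aqp3, Aqp4, Aqp7, Aqp8 and Aqp11. Aqp5, Aqp6 and Aqp9 were not, nor were the family members Mip, of the eye lens, and Aqp12, of the pancreas. Because probes differ in how brightly they bind, signals are compared within a gene and not between genes.

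**Figure D1:**
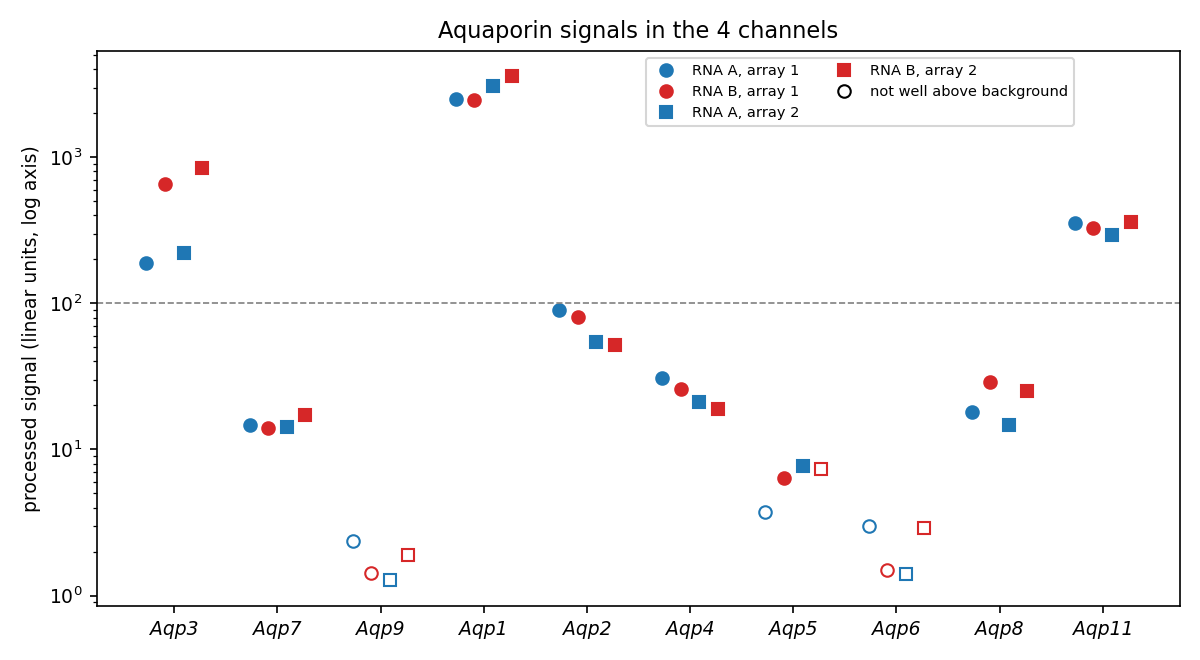
Processed signal (linear units, log axis) of the probe that represents each of the 10 aquaporins, for RNA A (blue) and RNA B (red) on array 1 (circles) and array 2 (squares); open symbols were not well above background, and the dashed line is the signal threshold of 100. Both RNA B values of Aqp3 lie above both of its RNA A values, and the same holds for the dimmer Aqp8. The looser condition of a brighter RNA B on both arrays was met by 17.4% of tested genes. Heights of different genes are not comparable.

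Aqp3 showed the largest difference between the RNAs among the 7 tested aquaporins. Its signal in RNA A was 189 on array 1 and 220 on array 2. In RNA B it was 652 on array 1 and 838 on array 2. The RNA B values did not overlap the RNA A values, and this held for single spots as well. The share of genes without such overlap was not counted. RNA B was brighter on both arrays, a looser condition, in 17.4% of tested genes. The 4 spots of array 1 ranged from 176 to 206 in RNA A and from 622 to 688 in RNA B, and the 4 spots of array 2 from 205 to 231 and from 793 to 886. RNA B was thus 3.45-fold brighter on array 1 and 3.81-fold brighter on array 2. The mean log2 ratio was −1.86 ± 0.10 (SD, n = 2 arrays), with a limma SE of 0.20 and an adjusted p of 0.0138, and 13 of 21429 tested genes had a lower mean ratio. Under the labels this is a higher Aqp3 signal in Pparg-cKO, and under the study's text a lower one.

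Aqp3 was also the only aquaporin past the filter, which asked of each array a difference of 1.5-fold or more, one direction for both, and a signal of 100 or more for whichever RNA was brighter. Over all genes the filter kept 0.230% as brighter in RNA B and 0.157% as brighter in RNA A. The shares past an adjusted p of 0.05 were 0.187% and 0.126% of tested genes. The limma call rested on settings: in 9 alternatives with a test the mean ratio stayed between −1.87 and −1.78, and the adjusted p ranged from 0.00714 to 1.00 and passed in 4. With 2 arrays an exact two-sided sign-flip test of 1 gene cannot go below 0.5.

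The Aqp3 probe lies at chr4:41039962-41040021 on the minus strand (mm9 in the array files). On chromosome 4 the neighbouring protein-coding genes are Aqp7 on one side and Nol6 on the other in the RefSeq order of assembly GRCm38.p6. Neither shared the Aqp3 ratio. Aqp7 had a mean log2 ratio of −0.08 and Nol6, a ribosome biogenesis gene, of −0.16. Nfx1, on the far side of Aqp7, had 0.04. The sequences upstream of the start sites of the adjacent pair are shown because only Aqp3 of the pair passed the filter. They are the 250 bases before the start, 5′ to 3′ on the gene's strand, from RefSeq (GRCm38.p6), Aqp3 at chr4:41098184-41098433 and Aqp7 at chr4:41048137-41048386, both on the minus strand. Capitals mark matches to the motifs searched.
Aqp3: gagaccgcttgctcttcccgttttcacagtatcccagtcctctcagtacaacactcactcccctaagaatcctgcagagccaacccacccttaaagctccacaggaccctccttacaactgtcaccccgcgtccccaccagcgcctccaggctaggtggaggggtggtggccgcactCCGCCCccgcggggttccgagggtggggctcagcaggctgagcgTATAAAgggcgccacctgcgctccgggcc
Aqp7: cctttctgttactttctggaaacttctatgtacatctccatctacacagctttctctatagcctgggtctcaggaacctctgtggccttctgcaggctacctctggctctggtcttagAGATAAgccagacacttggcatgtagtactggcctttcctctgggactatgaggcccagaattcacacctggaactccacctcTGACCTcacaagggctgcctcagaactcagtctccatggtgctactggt

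The motifs were searched on both strands in 11 promoter windows of 9 aquaporins, from 250 bases before to 50 bases after a start, and in 32851 windows of all genes. The nuclear receptor hexamer AGGTCA was in 16.3% of all windows, its direct repeat with 1 base between the copies, which contains the hexamer, in 0.0396%, AGATAA of GATA factors in 11.2%, TGTTTAC of forkhead factors in 3.65%, the GC box core GGGCGG in 35.7% and the TATA box TATAAA in 13.6%. The Aqp3 window held GGGCGG on the opposite strand at −73 and TATAAA at −29, and no match to AGGTCA. The Aqp7 window shown held AGGTCA on the opposite strand at −49 and AGATAA at −132. The second Aqp7 window overlaps it, shares that hexamer and holds another. Aqp11 held AGGTCA at −230 on the opposite strand, so that 3 of the 11 windows held the hexamer. The direct repeat was in 0 of 11. Matches to letters say nothing of binding. The Aqp8 window, whose gene is described next, held no match to any of the 6 motifs.

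Aqp8, a channel that passes water and ammonia, was dim and also brighter in RNA B. RNA A gave 18.03 on array 1 and 14.6 on array 2. RNA B gave 29.0 on array 1 and 25.1 on array 2. The spots of array 2 were spread, with log2 ratios from −1.21 to −0.37. The mean log2 ratio was −0.73 ± 0.07 (SD, n = 2), with a limma p of 0.00526 and an adjusted p of 0.456, so the difference did not pass the test. Being under a signal of 100, Aqp8 did not pass the filter either, although RNA B was 1.61-fold brighter on array 1 and 1.72-fold on array 2. After normexp background correction and loess the mean log2 ratio was −0.36, under 1.5-fold. Without the signal threshold, 0.691% of tested genes were brighter in RNA B by 1.5-fold or more on each array. The second Aqp8 probe, nearer the start of the transcript, was not well above background in any channel.

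**Figure D2:**
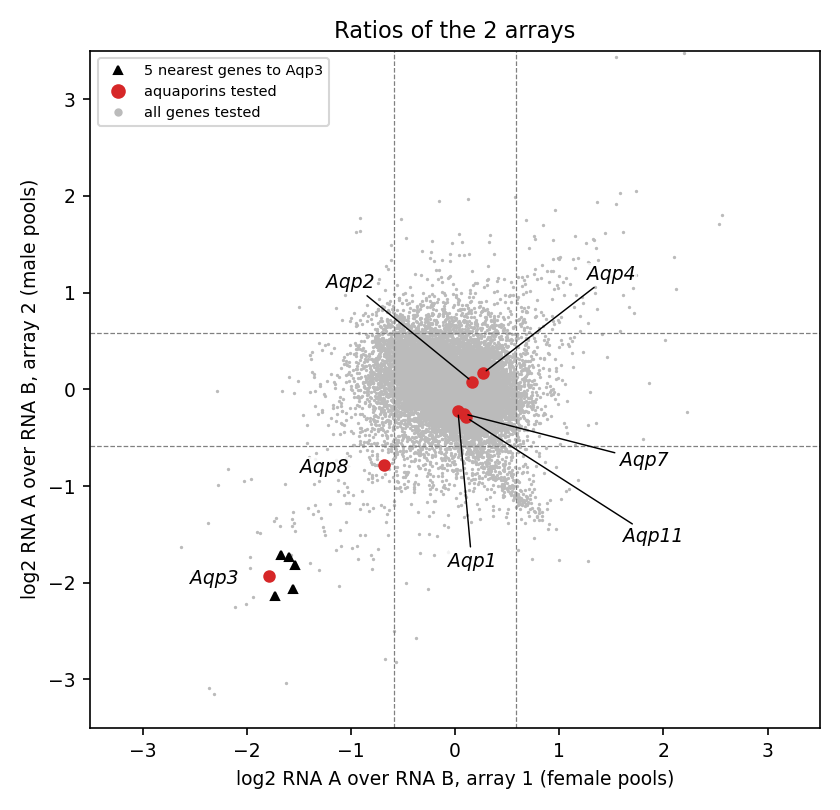
Each point is a gene, placed by its log2 ratio of RNA A over RNA B on array 1 (horizontal) and array 2 (vertical); grey points are the 21429 tested genes (3 lie outside the axes), red points the 7 tested aquaporins, triangles the 5 genes nearest to Aqp3, and dashed lines 1.5-fold. Aqp3 sits at −1.78 and −1.93, Aqp8 at −0.68 and −0.78, and the other 5 lie within 1.5-fold on both arrays.

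The other 5 tested aquaporins did not pass either rule, and their mean log2 ratios lay between −0.10 and 0.22. Aqp1, the constitutive water channel of proximal tubule, vessels and red cells, gave 2508 for RNA A against 2460 for RNA B (array 1), and 3078 against 3599 (array 2). Its ratio was near 0 on array 1 and slightly favoured RNA B on array 2, and the mean was −0.10 ± 0.18 (SD, n = 2). Aqp7, the aquaglyceroporin of fat and of the proximal tubule, gave 14.8 for RNA A against 13.9 for RNA B (array 1), and 14.3 against 17.1 (array 2). Here too the sign turned between arrays, with a mean of −0.08 ± 0.24 (SD, n = 2).

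Aqp2 gave 89.9 for RNA A against 80.3 for RNA B (array 1), and 54.8 against 51.8 (array 2). Aqp4, the orthogonal-array water channel of glia and collecting duct, gave 31.1 against 25.8 (array 1), and 21.3 against 19.0 (array 2). Both leaned to RNA A on both arrays, by less than 1.5-fold. The mean log2 ratio was 0.12 ± 0.06 for Aqp2 and 0.22 ± 0.07 for Aqp4 (SD, n = 2 each), with a limma adjusted p of 1.00 for both. A second Aqp4 probe had a ratio of −0.03 on array 1 and 0.10 on array 2.

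Aqp11 was measured by a pair of probes at chr7:104874889-104874948 and chr7:104877482-104877541 (minus strand, mm9). The brighter probe gave 353 for RNA A against 328 for RNA B (array 1), and 294 against 359 (array 2). The other gave 199 against 148 (array 1), and 135 against 182 (array 2). In both probes the red channel was the brighter one on either array, so the sign of the ratio turned, from 0.42 to −0.43 for the dimmer probe and from 0.11 to −0.29 for the other. The red channel was brighter on both arrays in 28.4% of tested genes. Averaged over the arrays, the mean log2 ratios were −0.09 ± 0.28 for the brighter probe and −0.0037 ± 0.60 for the other (SD, n = 2).

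**Figure D3:**
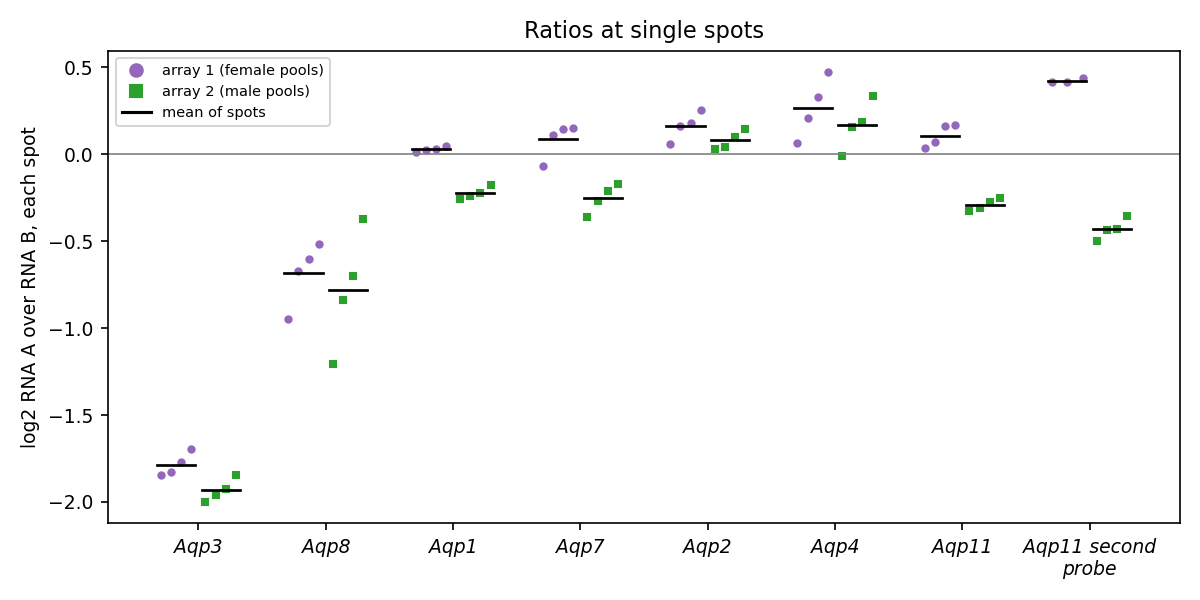
Log2 ratio of RNA A over RNA B at each kept spot of the probes of the 7 tested aquaporins and of the second Aqp11 probe, on array 1 (circles) and array 2 (squares), sorted within an array, with the mean of the spots as a bar. Aqp3 spots lie between −1.998 and −1.698, Aqp8 spots scatter more, and the second Aqp11 probe lies at about equal distances above and below 0 on the 2 arrays.

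The remaining 3 aquaporins gave no usable ratio. Aqp5, a channel of gland and airway epithelium, gave 3.75 for RNA A against 6.37 for RNA B (array 1), and 7.67 against 7.33 (array 2). It was well above background only in the green channel each time, which held RNA B on array 1 and RNA A on array 2. Aqp6, an intracellular channel of intercalated cells, and Aqp9, the aquaglyceroporin of hepatocytes, were not well above background in any channel, with signals of the representing probe between 1.41 and 2.99 for Aqp6 and between 1.27 and 2.35 for Aqp9. Aqp2, Aqp5 and Aqp6 neighbour each other on chromosome 15, and of these Aqp2 alone was tested.

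Over the 7 tested aquaporins the median of the mean log2 ratios was −0.09, beside 0.01 over all tested genes. Of the 7, 2 favoured RNA B on each array and 2 favoured RNA A, where the shares over all tested genes were 17.4% and 21.6%, and 3 changed sign. The median of the 7 was 0.08 on array 1 and −0.25 on array 2.

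The genes nearest to Aqp3 in the plane of the array ratios, among 15007 tested genes whose brighter RNA reached a signal of 100 on each array, were Sptssb, Upk3b, F630003A18Rik, Degs2 and Mfsd4a, at distances of 0.214 to 0.275 log2 units. Likeness here means 2 ratios and nothing more. Sptssb, a small subunit of serine palmitoyltransferase, had a mean log2 ratio of −1.94, Upk3b, a plaque protein of the urothelial surface, of −1.69, and Degs2, a sphingolipid hydroxylase, of −1.68. F630003A18Rik had −1.81 and the transporter gene Mfsd4a −1.66.

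Among genes that work with aquaporins, none passed either rule. The water channel traffic and control list holds vesicle fusion, kinase and transcription factor genes of the vasopressin and tonicity responses. It had 17 tested genes, and the median of the mean log2 ratios was −0.15 (−0.33 on array 1 and −0.06 on array 2). Of the 17, 8 favoured RNA B on each array, 0 favoured RNA A and 9 changed sign. Over all tested genes the shares that favoured RNA B and RNA A were 17.4% and 21.6%. The lowest was Elf3, an epithelial transcription factor, at −0.46, and the highest Vamp3, a vesicle fusion protein, at 0.13. The vasopressin receptor gene Avpr2 was not well above background on both arrays in the same RNA.

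Glycerol handling covers the enzymes that make and use the solute Aqp3 also carries. None of 12 tested genes passed either rule, and the median was −0.06. Of the 12, 2 favoured RNA B on each array, 2 favoured RNA A and 8 changed sign. Dgat2, which makes triacylglycerol, was lowest at −0.46 and Gpd1l, a glycerol-3-phosphate dehydrogenase relative, highest at 0.36. Of 15 tested genes of urea, salt and osmolyte transport none passed, with a median of −0.13 (−0.24 on array 1 and −0.01 on array 2). Of the 15, 7 favoured RNA B on each array, 1 favoured RNA A and 7 changed sign. The extremes there were Scnn1g, a subunit of the epithelial sodium channel, at −0.55 and Slc14a2, a urea transporter, at 0.28.

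**Figure D4:**
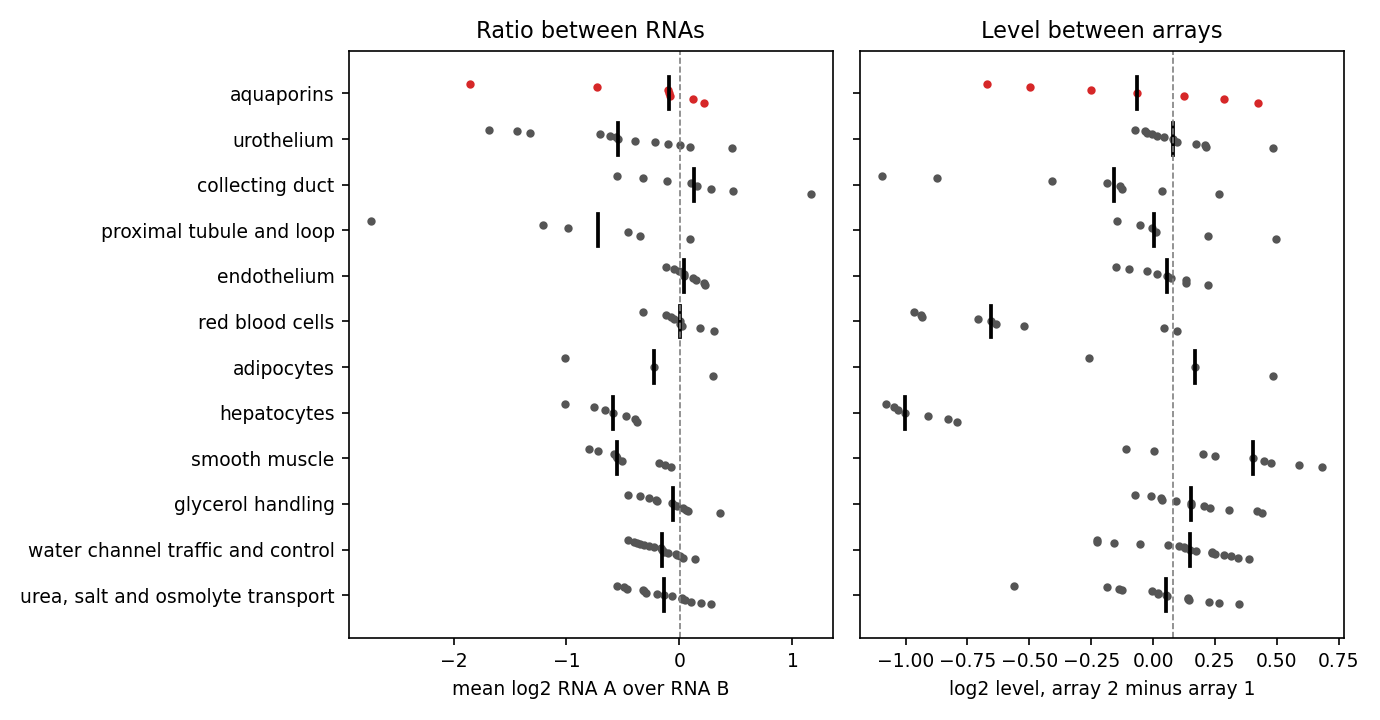
Left, mean log2 ratio of RNA A over RNA B of each tested gene (points) in the aquaporins and 11 gene lists, with the list median (black bar) and the median of all tested genes (dashed line); right, the log2 level on array 2 minus array 1, averaged over the RNAs, for the same genes. Aqp3 at −1.86 lies below the lowest urothelium gene (−1.69) on the left, and the red blood cell and hepatocyte medians lie at −0.66 and −1.001 on the right.

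Some markers of the cells that make aquaporins moved between the RNAs. Every urothelium and smooth muscle gene listed was tested, as the tissue label asks. In bulk tissue, fewer cells of a type and less RNA per cell cannot be told apart. Of 13 urothelium genes, all tested, 8 favoured RNA B on each array, 1 favoured RNA A and 4 changed sign. The filter kept 4 as brighter in RNA B (Upk1a, Upk3a, Upk3b and Krt20, products of superficial cells). Limma called 2 of them, Upk1a and Upk3b. The median of the list was −0.55 (−0.59 on array 1 and −0.30 on array 2). Krt5, a basal cell keratin, was highest at 0.47. The summed signal of the list was 111743 and 127051 in RNA A against 171324 and 169037 in RNA B. Smooth muscle genes had a median of −0.56 with 7 of 9 brighter in RNA B on both arrays and none past the filter or limma, Myh11 being lowest at −0.80 and Tagln2 highest at −0.08. Their summed signal was 93135 and 92544 in RNA A against 114619 and 147552 in RNA B. The part of these shifts in the Aqp3 ratio was not tested.

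Kidney markers are given because Aqp1, Aqp2, Aqp3, Aqp4, Aqp6, Aqp7 and Aqp8 are also made there. Of the proximal tubule and loop list, 6 of 10 genes were tested, 5 favoured RNA B on each array and the median was −0.72 (−0.37 after normexp and loess). Slc34a1, the phosphate cotransporter of the brush border, gave 6.20 for RNA A against 30.8 for RNA B (array 1), and 4.20 against 37.2 (array 2), the lowest mean log2 ratio of all tested genes (−2.73, limma adjusted p 0.0122) at a signal too low for the filter. Umod and Slc12a1, which define the thick ascending limb, were not well above background on both arrays in the same RNA. The summed signal of the list was 359 and 374 in RNA A and 473 and 545 in RNA B, and its part in the Aqp8 ratio was not tested. The median of the collecting duct list lay the other way, at 0.13 (0.24 on array 1, 0.17 on array 2 and 0.076 after normexp and loess), with 8 of 12 genes tested. Of the 8, 3 favoured RNA A on each array, 2 favoured RNA B and 3 changed sign. Fxyd4, a sodium pump regulator of the collecting duct, alone passed the filter there, as brighter in RNA A, with a mean of 1.16 (limma adjusted p 0.154), and Scnn1g was lowest at −0.55. The summed signal of all 12 genes was 1287 and 1208 in RNA A and 1102 and 846 in RNA B. Of this, Fxyd4 alone gave 691 and 684 in RNA A and 406 and 233 in RNA B. The part of the collecting duct list in the aquaporin ratios, that of Aqp3 included, was not tested.

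Vessel and blood markers, given because both tissues make Aqp1, had medians of the mean log2 ratios near 0. All 9 endothelium genes changed sign between arrays, as did 13071 of the 21429 tested genes. Their median was 0.04 (0.24 on array 1 and −0.05 on array 2), from Cdh5 at −0.12 to Tek at 0.23. Their summed signal was 16193 and 15291 in RNA A against 14501 and 15344 in RNA B. The 9 red blood cell genes had a median of 0.01, with Slc4a1, the anion exchanger of the red cell membrane, lowest at −0.32, and sums of 150759 and 140091 in RNA A and 143366 and 154229 in RNA B. Of 8 adipocyte genes, a source of Aqp7, 3 were tested, from Plin4 at −1.01 to Fabp4 at 0.30 (median −0.22), and Adipoq, Plin1 and Lep were not well above background on both arrays in the same RNA. Over all 8 genes, tested or not, the sums were 19088 and 19646 in RNA A and 14192 and 17476 in RNA B. Of these, Fabp4 alone gave 19055 and 19614 in RNA A and 14152 and 17430 in RNA B. The 7 hepatocyte genes had a median of 0.12 on array 1 and −1.30 on array 2, with Ttr lowest at −1.01 and Serpina1a highest at −0.38 in the mean, and sums of 7783 and 2547 in RNA A and 7580 and 6325 in RNA B.

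Levels also differed between the arrays, that is between female and male pools on 1 array each, with no replicate within a sex. Over all tested genes the log2 level on array 2 minus array 1, averaged over the RNAs, had a median of 0.08. For Aqp2 it was −0.67, and 1.54% of tested genes had a lower value. Aqp4 had −0.50, with 2.76% lower. Aqp1 had 0.42, with 96.0% lower. Aqp2 and Aqp4 were thus dimmer in both male pools and Aqp1 brighter in both. Aqp3 had 0.29, Aqp7 0.13, Aqp11 −0.07 and Aqp8 −0.25. Medians of the marker lists on the same scale were −1.001 for hepatocyte, −0.66 for red blood cell, −0.16 for collecting duct and 0.004 for proximal tubule and loop genes. They were 0.06 for endothelium, 0.08 for urothelium, 0.17 for adipocyte and 0.41 for smooth muscle genes. The part of these lists in the aquaporin levels was not tested. Each array's level averages 1 red and 1 green channel, but sex and array cannot be told apart here.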

How the data were processed

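Per the file headers, the processed intensities deposited by the authors came from Agilent Feature Extraction 10.7.3.1, with the background subtracted, surrogates set for spots near background, and the dyes normalised within each array. Ratios of dim probes depend on those steps. The deposited log10 ratios served to check the dyes, the deposited mean and background intensities an alternative, and the authors' table of signed fold changes, of unstated direction, another. Control spots (17263 per array) and 5705 and 5579 outlier spots were removed, and a probe's value is the mean of its kept spots' log2 signals. Of 39429 probes, 28328 were named through RefSeq (GRCm38.p6, names and neighbour order only). Positions are those of the files (mm9). The probe with the highest mean signal represented a gene. Genes well above background (at least 0.5 of spots) on both arrays in the same RNA were tested with limma 3.58.1 (R 4.3.3, intercept, eBayes, Benjamini-Hochberg over 21429 genes), and the filter was applied to all 29982. Before use the filter and limma were run on simulated ratios with large known changes. The simulation gave every gene the same noise and held no dye effect, so it checks the code and not the calls in these data. Replicates are 2 pool pairs, whose number limits the precision. Tables were read with the R package data.table, version 1.17.8, and pandas 2.3.3, and plots drawn with matplotlib 3.10.9. The second channel's stage label reads 14.5, titles and protocols 16.5, which was used.

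Members and lists were chosen with earlier results of these data known. Named are the aquaporins, Pparg, Mip, Aqp12, the 5 genes nearest to Aqp3, and in each list the genes past the filter and those with the highest and lowest mean ratio, except for an item that is not reported here. Nol6, Nfx1, Avpr2 and undetected markers were named after their values were seen. Alternatives were normexp (offset 50) followed by loess, a further loess of the processed values, median centring, the deposited table, other probe, signal (none, 200, well above background) and fold (2) rules, dim probes kept, a trend of variance with intensity, separate channels, the median over spots and leaving out each array. A set of genes well above background on each array in either RNA was added after seeing the data.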

Additional observations from a re-analysis of the deposited data

Results flagged for a closer look

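Aquaporins whose ratio had opposite signs on the female and the male array are given here as log2 ratio on array 1 minus array 2, a difference that was not tested. It was 0.25 for Aqp1, 0.34 for Aqp7 and 0.40 for Aqp11, all 3 with the red channel brighter on both arrays. For genes not well above background in the same RNA on both arrays it was −0.83 for Aqp5, 2.06 for Aqp6 and 1.28 for Aqp9. These ratios are not usable. For Aqp6 and Aqp9 the red channel was again the brighter one on both arrays, and surrogates stood in for part of the spots.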

How the results depend on the processing

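Aqp3 alone passed the filter in every filter alternative except that without a signal threshold and that asking for a signal well above background, where Aqp8 joined it (2 aquaporins). Limma called 0 aquaporins in 5 alternatives, where the mean log2 ratio of Aqp3 was −1.78 after normexp and loess (adjusted p 0.0707), −1.84 in the deposited table (0.865), and −1.86 with dim probes kept (1.00), with genes well above background in either RNA on each array (0.125, added after seeing the data) and with separate channels and no replicate block (0.110). In these 5 alternatives limma called at most 1 gene of all tested, so the loss was not particular to Aqp3. Unadjusted, its p was at most 0.00236 and that of Aqp8 between 0.00466 and 0.0596, with its ratio at −0.36 after normexp and loess. The causes were not tested. Single arrays, which allow no test, gave 1 filtered aquaporin each, among 488 genes (array 2) and 637 genes (array 1) brighter in RNA B, −1.93 and −1.78 for Aqp3, −0.25 and 0.08 for the median of the 7, and, without replicate 1 and without replicate 2 in turn, −0.23 and 0.028 for Aqp1, −0.25 and 0.085 for Aqp7, and −0.29 and 0.11 for Aqp11. Ratios within an array pair the RNAs of a replicate, and the separate channels are the unpaired fit. The list medians moved beyond the spread between arrays in 9 cases, among proximal tubule, collecting duct, adipocyte and urothelium genes, with no change of sign, and medians of red blood cell, endothelium, glycerol handling and hepatocyte genes turned sign within that spread in some alternatives. Dim signals limit Aqp4, Aqp7 and Aqp8, and Aqp5, Aqp6 and Aqp9 could not be measured.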
